A study of Mus musculus with 24 samples.

Results

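The genes described here are the 56 genes of the mouse count table that encode the major histocompatibility complex (MHC) or the machinery that loads and controls it, out of 55401 genes in all. They were taken by name alone: 45 genes whose symbol begins with H2-, the mouse name of the MHC, and 11 further genes (*B2m*, *Tap1*, *Tap2*, *Tapbp*, *Psmb8*, *Psmb9*, *Psmb10*, *Nlrc5*, *Ciita*, *Cd74* and *Erap1*). By their known products 33 belong to class I, 14 to class II and 8 to the processing and control of class I, while *H2-Ke6* lies in the region but encodes no MHC chain. PolyA RNA was sequenced from bulk maternal-fetal interface (MFI) of mice, the tissue in which maternal decidua meets the fetal placenta. Wild-type (WT) C57BL/6 mice were compared with homozygous C1qtnf6-KO (KO) mice of a C57BL/6JCya line, which carry a germline CRISPR/Cas9 deletion of *C1qtnf6* in all cells, at 4 stages named by gestation day (gd), from gd10.5 over gd14.5 and gd16.5 to gd19.5. No mouse was given a treatment, and no other allele was named. Each of the 8 groups had 3 libraries, 24 in all, and the labels name no dam, litter or batch, so the p-values measure the spread between these libraries. In bulk tissue, fewer cells of a type and less RNA per cell cannot be told apart, and reads of mother and fetus were not separated.

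MHC class I molecules pair a heavy chain with beta-2 microglobulin (*B2m*) and display peptides cut in the cytosol by the proteasome, carried into the endoplasmic reticulum by the transporter of *Tap1* and *Tap2*, trimmed by *Erap1* and loaded with the help of tapasin (*Tapbp*). CD8 T cells read them, and receptors of NK cells sense them. Class II molecules display peptides made in endosomes on dendritic cells, macrophages and B cells, are chaperoned by the invariant chain (*Cd74*) and are edited by the H2-DM and H2-O proteins. *Nlrc5* is the main coactivator of class I genes and *Ciita* that of class II genes. At the MFI, trophoblast is known to lack class II and to limit class I, and the NK cells of the decidua are the main lymphocytes of early gestation.

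Promoters of both classes are known to share an upstream enhanceosome, in which X box and Y box sequences hold the factors that *Nlrc5* or *Ciita* join. RefSeq (GRCm38.p6) gave 250 bases before the start of 39 of the 56 members in 42 windows. These were searched on both strands for the Y box (GATTGG), an X box core (AGCAAC), a kappa B site (GGGATTCCC) and an interferon-stimulated response element core (GAAANNGAA). Also searched was TGACGC, a part of the site beside the X box that resembles a cyclic AMP response element (CRE). The 6 runs of 180 bases below end upstream of the annotated exons and are shown because they belong to the genes the results turn on, with the motifs found in capitals and no motif overlapping another. The runs lie at chr2:122147506-122147685 (plus strand, *B2m*), chr17:34000348-34000527 (minus, *H2-K1*), chr17:35424670-35424849 (plus, *H2-Q6*), chr17:35438975-35439154 (plus, *H2-Q7*), chr17:34287824-34288003 (minus, *H2-Aa*) and chr17:34305687-34305866 (plus, *H2-Eb1*).
B2m: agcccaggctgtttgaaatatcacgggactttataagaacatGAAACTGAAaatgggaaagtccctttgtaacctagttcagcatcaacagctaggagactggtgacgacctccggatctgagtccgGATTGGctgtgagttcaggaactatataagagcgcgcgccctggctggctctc
H2-K1: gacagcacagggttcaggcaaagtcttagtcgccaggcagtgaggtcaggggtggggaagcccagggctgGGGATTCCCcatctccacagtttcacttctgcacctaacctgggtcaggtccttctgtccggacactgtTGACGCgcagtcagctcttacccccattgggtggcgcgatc
H2-Q6: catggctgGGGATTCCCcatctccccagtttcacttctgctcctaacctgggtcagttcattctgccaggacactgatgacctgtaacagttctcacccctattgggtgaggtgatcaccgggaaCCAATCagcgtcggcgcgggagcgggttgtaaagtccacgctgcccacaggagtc
H2-Q7: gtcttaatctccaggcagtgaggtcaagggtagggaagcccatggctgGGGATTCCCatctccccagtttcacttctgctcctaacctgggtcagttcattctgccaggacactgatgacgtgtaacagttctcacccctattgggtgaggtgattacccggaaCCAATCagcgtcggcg
H2-Aa: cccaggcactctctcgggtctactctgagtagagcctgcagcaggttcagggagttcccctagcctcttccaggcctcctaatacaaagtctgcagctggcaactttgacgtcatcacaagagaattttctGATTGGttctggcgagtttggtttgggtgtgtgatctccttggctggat
H2-Eb1: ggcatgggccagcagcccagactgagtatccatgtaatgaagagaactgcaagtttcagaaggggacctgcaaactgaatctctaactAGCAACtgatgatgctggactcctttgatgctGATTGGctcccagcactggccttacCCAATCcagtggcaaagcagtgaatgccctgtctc

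The Y box was found in 30 of the 42 windows, among them 19 of 26 class I and 8 of 9 class II windows, and in 14.56% of all 32851 promoter windows. The printed *H2-K1* run shows no Y box because it ends before the annotated exons, but another window of *H2-K1* holds one within them. All 4 windows with an X box core were class II (*H2-Eb1*, *H2-Eb2*, *H2-Oa* and *H2-Ob*), and 12.21% of all windows held it. The kappa B letters were in 5 windows, of *H2-K1* (2 windows), *H2-D1*, *H2-Q6* and *H2-Q7*, against 0.3% of all windows. The letters TGACGC were in 4 class I windows (6.12% of all). Other forms of the CRE, such as the tgacgtca of the *H2-Aa* run, were not searched for. The interferon element core was in 4 windows (7.13% of all), of *B2m*, *H2-T22*, *H2-T23* and *Erap1*. *H2-Q6* and *H2-Q7*, the pair that encodes the nonclassical Qa-2 molecule, had 205 of 211 aligned positions alike. No motif was found in the windows of *H2-Q2* and *H2-Q10*, and these letters are a description of the windows, not sites of binding.

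Total counts per library lay between 20975717 and 37383108, and 3 counts, the limit of detection used here, are 0.0773 to 0.149 CPM, the scaling of counts by TMM-normalised library size used throughout. *C1qtnf6* was at 64.7 to 168 CPM in the WT libraries and at 0.0341 to 2.05 CPM in the KO libraries, so each library matched its genotype label. Stage labels cannot be checked this way. KO gd10.5 replicate 2 stood apart: its summed level of 11 trophoblast markers was 20475 CPM against 6422 to 10512 in the other 5 gd10.5 libraries, and that of 7 NK cell markers 422 against 752 to 1105. Its summed Y-linked RNA (*Ddx3y*, *Eif2s3y*, *Kdm5d* and *Uty*) was 71.1 CPM against 0.0374 to 0.311 CPM in the other 5. At gd16.5 this sum was 89.2, 0.663 and 0.487 CPM in WT and 194, 188 and 1.14 CPM in KO, so it was uneven between groups. The Y-linked covariate used below was made from this sum. Without KO gd10.5 replicate 2 the KO step from gd10.5 to gd14.5 had 22 calls among the members in place of 18, and KO against WT at gd10.5 still had 0.

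Class I RNA was abundant at every stage and class II RNA was scarce. Per length, *B2m* had group means of 826 to 1253 CPM per kb and ranked 40 of all genes, *H2-D1* followed at 219 to 285 CPM per kb (rank 156) and *H2-K1* at 156 to 227 CPM per kb (rank 222). *Tapbp* came next among the members at 37.7 to 50.9 CPM per kb. The nonclassical *H2-T23*, which encodes the Qa-1 molecule read by NK receptors, stood at 16.8 to 29.8, *H2-T22* at 9.90 to 17.5 and *H2-Q6* at 6.49 to 13.8 CPM per kb, so that the range of *H2-T22* overlapped both of the others, while those of *H2-T23* and *H2-Q6* did not overlap. *Cd74* was the highest class II gene at 4.88 to 13.4 CPM per kb, and *H2-Aa*, *H2-Ab1* and *H2-Eb1*, which encode chains of the I-A and I-E molecules, ranged from 1.41 to 4.23 CPM per kb. The 2 classical genes *H2-K1* and *H2-D1* held 80.3% to 87.5% of all class I heavy chain CPM in each library. The 14 class II genes summed to 23.8 to 75.4 CPM.

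Of the 56 members, 35 passed the filter on low counts over all 24 libraries: 19 of 33 in class I, 8 of 14 in class II and all 8 of class I processing and control. In the fits of single stages 35 passed at gd10.5 and 32 at each later stage, with *H2-M10.2* passing at gd14.5 alone. The 20 members that passed no filter were *H2-Ke6*, *H2-Pb*, *H2-Pa*, *H2-Oa*, *H2-DMb2*, *H2-Eb2*, *H2-Ea*, *H2-Q3*, *H2-Bl*, *H2-T3*, *H2-M10.1*, *H2-M10.3*, *H2-M10.5-ps1*, *H2-M10.4*, *H2-M11*, *H2-M10.5*, *H2-M10.6*, *H2-M6-ps*, *H2-M5* and *H2-M2*. Of these 10 had at most 3 counts in every library, and *H2-Pa* and *H2-M10.5* had none. *H2-Ea*, whose promoter is known to be deleted in the C57BL/6 haplotype, reached 1 count in a library at most.

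The step from gd10.5 to gd14.5 held most of the stage changes. In WT, 15 of 35 tested members fell and 5 rose (edgeR quasi-likelihood test, Benjamini-Hochberg adjusted p under 0.05), where 27.8% of all 19299 genes fell and 26.2% rose. In KO, 15 fell and 3 rose, where 26.4% of all genes fell and 24.7% rose. The median log2 fold change of the 35 was -0.45 in WT and -0.36 in KO. Called the same way in both genotypes were 16 members, of which 13 fell. Among these 13 were *H2-Q1*, *H2-M9* and *H2-M1*, which passed the filter only through gd10.5 and so had to be higher there. They are part of the counts and medians above. A filter of 10 counts in every library, which they did not pass, tested 28 members. It called 12 lower and 4 higher in WT, and 13 in KO. With counts scaled by library totals alone, in place of the TMM factors, the median of all genes in this step moved to -0.13 in both genotypes and the all-gene calls to 3965 higher and 6580 lower in WT, from 5061 and 5368. The split of the members then moved to 17 lower and 1 higher in WT and 18 lower and 2 higher in KO, and without WT gd10.5 replicate 3 it was 18 lower and 1 higher in WT.

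**Figure D1:**
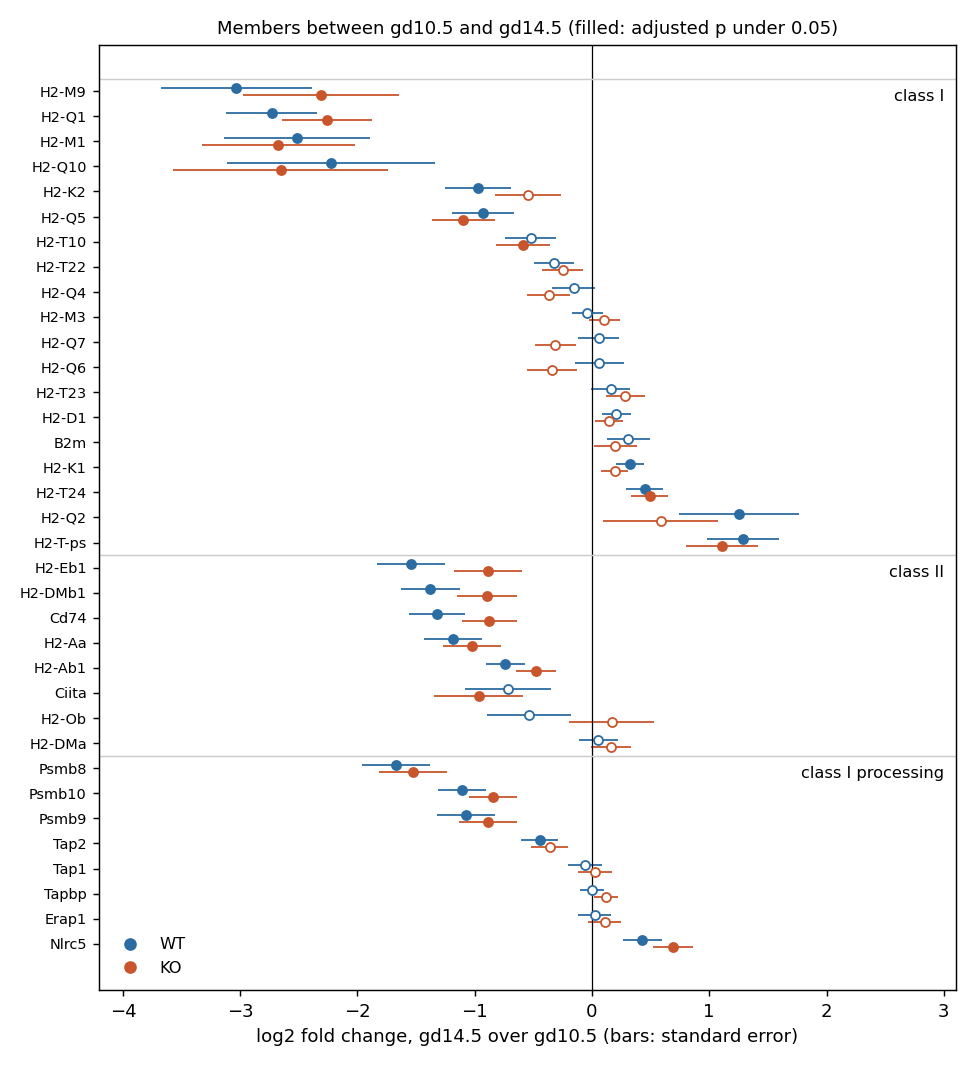
Log2 fold change from gd10.5 to gd14.5 for the 35 tested members in WT (blue) and KO (orange), with standard errors; filled points had an adjusted p under 0.05. Cd74, H2-Aa, H2-Ab1, H2-Eb1, H2-DMb1 and the immunoproteasome genes Psmb8, Psmb9 and Psmb10 lie to the left of 0, while H2-K1, H2-D1 and B2m lie close to it.

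Classical class I moved little through this step. *H2-K1* stood at 431, 535 and 407 CPM in the WT libraries at gd10.5 and at 560, 591 and 567 CPM at gd14.5. All 3 later libraries lay above the earlier ones, the log2 fold change was 0.32 (SE 0.12, adjusted p = 0.024), and the call was lost with library totals (0.22, adjusted p = 0.11) and without WT gd10.5 replicate 1, WT gd10.5 replicate 3 or WT gd14.5 replicate 2. In KO, *H2-K1* was at 526, 398 and 494 CPM and then at 573, 529 and 520 CPM, which overlapped (0.19, SE 0.12, adjusted p = 0.17). *H2-D1* was at 540, 679 and 488 CPM and then at 635, 675 and 663 CPM in WT (0.21, SE 0.12, adjusted p = 0.15), and *B2m* at 662, 1057 and 597 CPM and then at 1031, 882 and 958 CPM (0.31, SE 0.18, adjusted p = 0.16). Without WT gd10.5 replicate 2, the highest of its group for all 3 genes, both passed the test. *H2-Q4*, *H2-Q6*, *H2-Q7*, *H2-T22*, *H2-T23* and *H2-M3*, all nonclassical, did not pass in either genotype, with log2 fold changes of -0.37 to 0.29.

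**Figure D2:**
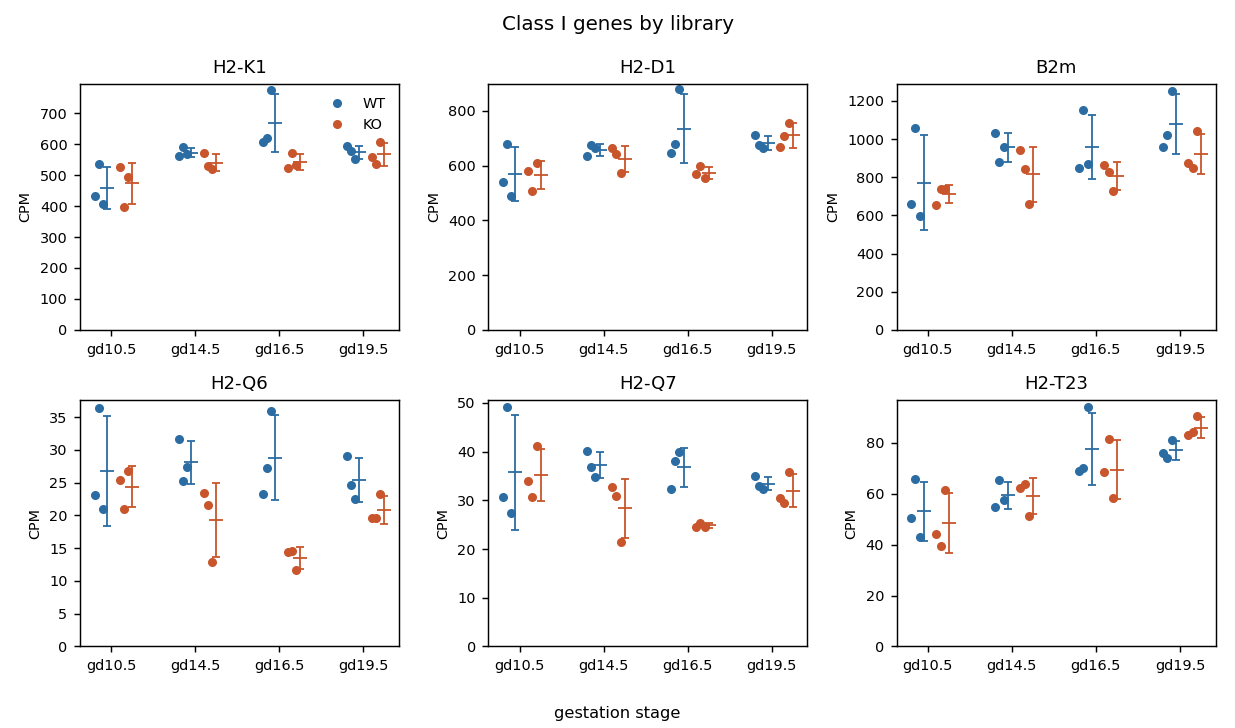
CPM of 6 class I genes in each of the 24 libraries, by stage and genotype (points), with the mean and SD of the 3 libraries of a group beside them. H2-K1, H2-D1 and B2m stay within 398 to 1254 CPM throughout, and the KO points of H2-Q6 and H2-Q7 lie below the WT points at gd14.5 and gd16.5.

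Class II RNA fell. *Cd74* went from 22.3, 27.8 and 17.2 CPM in WT at gd10.5 to 10.1, 9.92 and 6.86 CPM at gd14.5, 2.50-fold lower (log2 -1.32, SE 0.24, adjusted p = 1.2e-04), and from 17.7, 14.2 and 22.5 to 9.63, 10.8 and 9.19 CPM in KO, 1.84-fold lower (log2 -0.88, SE 0.24, adjusted p = 0.0043). The groups did not overlap in either genotype. Over all stages every gd10.5 library, at 14.2 CPM or more, lay above every one of the 18 later libraries, at 12.8 CPM or less.
*H2-Aa*, the alpha chain of the I-A molecule, went from 14.6, 18.3 and 9.35 CPM to 6.84, 5.89 and 5.89 CPM in WT, and from 10.2, 8.87 and 15.2 to 5.41, 6.37 and 5.05 CPM in KO. Its partner *H2-Ab1* went from 9.05, 11.1 and 7.74 to 6.16, 5.25 and 5.34 CPM in WT, a smaller log2 fold change (-0.74, SE 0.17, adjusted p = 0.0010) than that of *H2-Aa* (-1.18, SE 0.25, adjusted p = 5.2e-04), although the pair forms 1 molecule. In KO the values were -0.48 for *H2-Ab1* (SE 0.17, adjusted p = 0.023) and -1.02 for *H2-Aa* (SE 0.25, adjusted p = 0.0021). The *H2-Ab1* call was lost with the 6 libraries of the 2 groups alone (adjusted p = 0.14). It was also lost without KO gd10.5 replicate 3, KO gd14.5 replicate 1 or KO gd14.5 replicate 3. The difference between the chains was not tested.

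*H2-Eb1*, the beta chain of I-E, fell 2.92-fold in WT, from 7.85, 10.9 and 5.92 CPM to 3.11, 2.63 and 2.74 CPM, and 1.85-fold in KO, from 6.05, 4.57 and 8.89 CPM to 3.40, 3.81 and 3.33 CPM. Its KO call was lost without KO gd10.5 replicate 3 (log2 -0.59, adjusted p = 0.12). *H2-DMb1*, a chain of the peptide editor H2-DM, fell 2.60-fold in WT and 1.86-fold in KO, between 1.30 and 2.00 CPM at gd10.5 and 0.498 to 1.19 CPM in all later libraries. Its partner *H2-DMa* did not pass the test in either genotype (log2 0.06, SE 0.17 in WT, and 0.16, SE 0.17 in KO), nor did *H2-Ob*. The coactivator *Ciita* was low throughout, at 0.309 to 1.57 CPM: it fell in KO (log2 -0.97, SE 0.38, adjusted p = 0.039), a call lost in 7 of 14 alternatives (adjusted p = 0.021 to 0.18), namely no filter, limma voom, the replicate block (0.052) and leaving out KO gd10.5 replicate 3 or any single KO gd14.5 library. In WT it had a log2 fold change of -0.71 (SE 0.37, adjusted p = 0.11), which passed without WT gd10.5 replicate 3 (log2 -1.04, adjusted p = 0.015). In all, 5 of 8 tested class II genes fell in WT, where 27.8% of all genes fell, and 6 of 8 in KO, where 26.4% fell. None rose, and the median log2 fold change of the 8 was -0.96 in WT and -0.88 in KO.

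Among the genes that feed class I, all 3 immunoproteasome genes fell, while *Tapbp*, *Tap1* and *Erap1* did not pass the test. *Psmb8*, *Psmb9* and *Psmb10* encode the catalytic subunits that replace *Psmb5*, *Psmb6* and *Psmb7* in immune cells and under interferon. *Psmb8* was at 16.0, 23.1 and 11.5 CPM in WT at gd10.5 and at 5.42, 5.33 and 5.18 CPM at gd14.5, 3.18-fold lower (log2 -1.67, SE 0.29, adjusted p = 9.3e-05). In KO it went from 17.2, 6.70 and 19.9 to 5.79, 4.79 and 4.59 CPM, 2.88-fold lower (log2 -1.53, SE 0.29, adjusted p = 2.6e-04), and KO gd10.5 replicate 2 was the low library. *Psmb9* fell 2.10-fold in WT and 1.85-fold in KO, and *Psmb10* 2.16-fold and 1.80-fold. The *Psmb9* call in KO was lost with the 6 libraries of the 2 groups alone (adjusted p = 0.072).
Relative to its constitutive counterpart and per length, *Psmb8* was at 0.0826, 0.110 and 0.0559 of *Psmb5* in WT at gd10.5 and at 0.0333, 0.0322 and 0.0293 at gd14.5. In KO the ratio was 0.0746, 0.0306 and 0.102 at gd10.5 and 0.0348, 0.0316 and 0.0286 at gd14.5. It lay between 0.0250 and 0.0511 in the 18 later libraries, a range that holds KO gd10.5 replicate 2, while the other 5 libraries of gd10.5 lay above it. The counterparts also fell, by 0.27 (*Psmb5*), 0.41 (*Psmb6*) and 0.43 (*Psmb7*) on the log2 scale in WT, so the ratio moved less than the gene. The ratio of *Psmb9* to *Psmb6* overlapped between gd10.5 and gd14.5 in both genotypes. That of *Psmb10* to *Psmb7* was 0.288, 0.387 and 0.238 in WT at gd10.5 and 0.191, 0.215 and 0.173 at gd14.5. In KO it overlapped, at 0.266, 0.169 and 0.384 and then 0.222, 0.244 and 0.206, and it was 0.278, 0.400 and 0.307 at gd19.5. *Tapbp* and *Tap1* did not pass the test in either genotype, with log2 fold changes of -0.06 to 0.12, and *Erap1* had 0.02 (SE 0.14) in WT and 0.11 (SE 0.14) in KO. *Tap2*, at 17.1, 21.9 and 18.7 CPM and then 12.9, 14.9 and 14.6 CPM in WT, fell (log2 -0.45, SE 0.16, adjusted p = 0.024), a call lost with a Y-linked covariate and without WT gd10.5 replicate 2 or WT gd14.5 replicate 1.

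**Figure D3:**
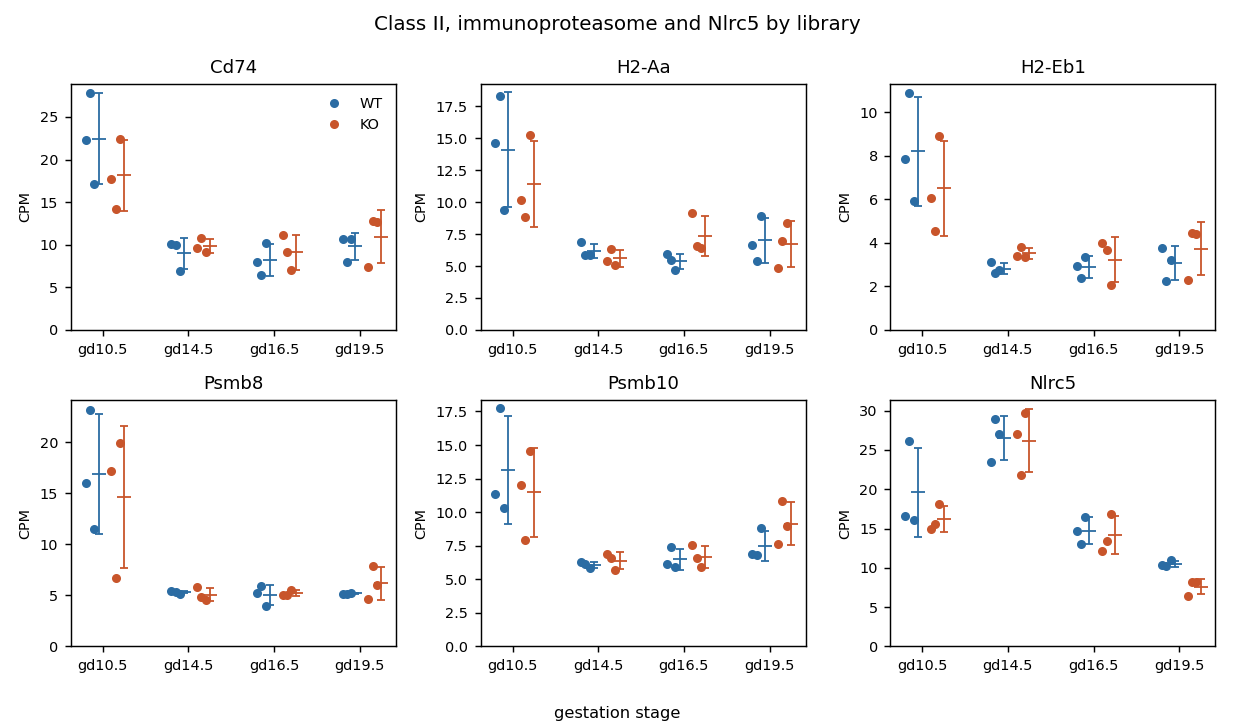
CPM of 3 class II genes, of 2 immunoproteasome genes and of Nlrc5 in each of the 24 libraries, by stage and genotype (points), with the mean and SD of each group of 3. The other 5 genes have their highest means at gd10.5, and Nlrc5 has its highest mean at gd14.5 in both genotypes, 26.5 CPM in WT and 26.1 CPM in KO.

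*Nlrc5* went the other way from *Ciita*. It was at 16.7, 26.1 and 16.1 CPM in WT at gd10.5 and at 23.4, 28.9 and 27.1 CPM at gd14.5 (log2 0.43, SE 0.17, adjusted p = 0.035), and at 14.9, 15.5 and 18.1 and then 27.0, 21.8 and 29.7 CPM in KO (log2 0.69, SE 0.17, adjusted p = 0.0019). The WT libraries overlapped. That call was lost with library totals (adjusted p = 0.10), a Y-linked covariate (0.051) and the 6 libraries of the 2 groups alone (0.062). It was also lost without any of 4 single libraries (WT gd10.5 replicates 1 and 3, WT gd14.5 replicates 2 and 3), whereas the KO call held in every alternative. *Nlrc5* then fell to 14.7, 13.0 and 16.496 CPM in WT at gd16.5 (log2 -0.84, SE 0.17, adjusted p = 0.0016) and to 12.2, 13.4 and 16.8 CPM in KO (log2 -0.89, SE 0.17, adjusted p = 8.9e-04). From gd16.5 to gd19.5 it fell again in KO, to 6.47, 8.25 and 8.14 CPM (log2 -0.89, SE 0.17, adjusted p = 0.0073), while WT was at 10.4, 10.3 and 10.97 CPM (log2 -0.49, SE 0.17, adjusted p = 0.11). *H2-K1*, *H2-D1* and *B2m* did not fall with it: over the last step their log2 fold changes lay on both sides of 0 and none passed the test.

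Among the little expressed class I genes *H2-Q1*, *H2-M9* and *H2-M1* passed the filter through their gd10.5 libraries and at no later stage, so that they had to be higher there, and their values are a description. *H2-Q1* went from 1.86, 1.92 and 1.27 CPM to 0.395, 0.166 and 0.168 CPM in WT (log2 -2.73, SE 0.39, adjusted p = 1.1e-05) and from 1.68, 0.838 and 1.90 CPM to 0.157, 0.283 and 0.498 CPM in KO (log2 -2.26, SE 0.38, adjusted p = 7.7e-05). *H2-M9* went from 2.48, 1.76 and 1.69 CPM to 0.0527, 0.193 and 0.547 CPM in WT (log2 -3.03, SE 0.65, adjusted p = 6.0e-04), and *H2-M1* from 1.41, 0.648 and 0.635 CPM to 0.184, 0.111 and 0.168 CPM (log2 -2.51, SE 0.63, adjusted p = 0.0022). In KO both genes fell too, but KO gd10.5 replicate 2, at 0.305 CPM of *H2-M9* and 0.152 CPM of *H2-M1*, overlapped the gd14.5 libraries. At gd14.5 the libraries held 4 to 15 counts of *H2-Q1*, 1 to 15 of *H2-M9* and 2 to 7 of *H2-M1*. *H2-Q5* fell 1.90-fold in WT and 2.14-fold in KO, and *H2-K2* fell 1.96-fold in WT only by the test, with a log2 fold change of -0.54 (SE 0.28) in KO. The pseudogene *H2-T-ps* rose 2.44-fold in WT and 2.16-fold in KO (log2 1.11), where limma voom gave a log2 fold change of 1.89, leaving out KO gd10.5 replicate 2 gave 1.71 and leaving out KO gd10.5 replicate 1 gave 0.74, and where the 6 libraries alone lost the call (adjusted p = 0.090). *H2-T24* rose by 1.37-fold and 1.41-fold, calls of *H2-T24* that were lost with library totals (log2 0.34 in WT and 0.36 in KO). The WT call was also lost without WT gd10.5 replicate 3 or WT gd14.5 replicate 3. The KO call was also lost without KO gd10.5 replicate 1 or 3 and with the 6 libraries alone (adjusted p = 0.13).

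*H2-Q10*, which encodes a secreted class I chain of the liver, and *H2-Q2* were uneven within groups. *H2-Q10* was at 3.30 CPM in WT gd10.5 replicate 1 and at 0.405 and 0.169 CPM in the other 2 libraries, and at 0.797, 3.61 and 0.411 CPM in KO at gd16.5. *H2-Q2* was at 2.41, 0.486 and 0.338 CPM in WT at gd10.5 and at 7.47, 10.4 and 3.79 CPM in KO at gd16.5. WT gd10.5 replicate 1 and KO gd16.5 replicate 2, the highest of these groups in *H2-Q10*, were also highest in *Afp*, a gene of yolk sac endoderm and fetal liver. *Afp* was at 2213, 6.67 and 9.43 CPM in WT at gd10.5, at 1033, 869 and 1894 CPM in KO at gd10.5, at 4466, 98.1 and 39.0 CPM in WT at gd16.5 and at 4397, 14889 and 90.0 CPM in KO at gd16.5. The part of these tissues in the *H2-Q10* and *H2-Q2* values was not tested. *H2-Q10* fell from gd10.5 to gd14.5 in both genotypes (log2 -2.23 in WT and -2.65 in KO) and rose to gd16.5 in KO (log2 2.93, SE 0.91, adjusted p = 0.025), and *H2-Q2* rose in WT to gd14.5 (log2 1.25) and in KO to gd16.5 (log2 1.42). Each of these 5 calls was lost when any of 3 or more single libraries was left out, among them WT gd10.5 replicate 1 for the fall of *H2-Q10* in WT (log2 -0.15 without it) and KO gd16.5 replicate 2 for its rise in KO (log2 1.46).

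Few members moved later. From gd14.5 to gd16.5, 1 rose and 1 fell in WT (*Tapbp* and *Nlrc5*), where 9.73% of all genes rose and 8.37% fell, and 4 rose and 1 fell in KO (*H2-Q10*, *H2-Q2*, *H2-T24*, *Erap1* and *Nlrc5*), where 12% rose and 11.6% fell. *Erap1* was at 58.5, 49.2 and 56.7 CPM and then at 88.3, 81.2 and 73.9 CPM in KO (log2 0.57, SE 0.14, adjusted p = 0.0059), and at 48.4, 55.4 and 55.1 and then 67.7, 73.3 and 63.1 CPM in WT (log2 0.36, SE 0.14, adjusted p = 0.077). Its gene shares 11.5% of its exon bases with *Cast* on the opposite strand, and the counting ignored strand. *H2-T24* was at 7.52, 7.60 and 7.35 and then at 11.7, 14.7 and 11.4 CPM in KO (log2 0.75, SE 0.15, adjusted p = 0.0016). *Tapbp* was at 125, 156 and 130 and then at 162, 160 and 196 CPM in WT (log2 0.33, SE 0.10, adjusted p = 0.028). That call was lost with library totals, no filter (adjusted p = 0.065) and the 6 libraries of the 2 groups alone (0.051). It was also lost without WT gd14.5 replicate 1, WT gd14.5 replicate 3 or WT gd16.5 replicate 3. From gd16.5 to gd19.5 no member passed the test in WT, where 1.97% of all genes rose and 2.67% fell, and 1 had an unadjusted p under 0.05. DESeq2 and limma voom called none either. In KO only *Nlrc5* passed, where 3.02% rose and 2.96% fell.
With library totals the KO calls from gd14.5 to gd16.5 became 4 higher and 6 lower, and those from gd16.5 to gd19.5 4 higher and 1 lower.

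The summed markers of antigen-presenting cells rose where the class II sum fell, but the single markers were mixed. Between gd10.5 and the later stages the summed level of 14 class II genes went from 39.3 to 75.4 CPM down to 23.8 to 38.2 CPM, that of 11 macrophage markers from 493 to 709 CPM up to 791 to 1296 CPM, and that of 9 dendritic cell markers from 23.05 to 30.4 CPM up to 54.1 to 97.4 CPM. None of these 3 pairs of ranges overlapped. From gd10.5 to gd14.5 most macrophage markers had negative log2 fold changes, 7 of 11 in each genotype, with a median of -0.50 in WT and -0.30 in KO. By the test 2 rose in both genotypes, *Cd68* and *Csf1r*, while 2 fell in WT, *C1qa* and *C1qb*, and 1 in KO, *C1qa*. At an unadjusted p under 0.05 were 2 higher and 5 lower in WT, and 2 higher and 3 lower in KO. Much of the later dendritic cell sum was *Flt3*, at 2.39 to 10.9 CPM at gd10.5 and at 26.3 to 76.0 CPM later, a gene that other cells also express. Without *Flt3* the dendritic cell sums overlapped, at 19.501 to 23.5 CPM at gd10.5 and 20.03 to 34.7 CPM later. The 7 NK cell markers all fell, from 422 to 1105 CPM down to 82.3 to 251 CPM, and *Ptprc*, which encodes the leukocyte antigen CD45, went from 28.8 to 70.3 CPM down to 7.74 to 16.8 CPM. Not all of these NK cell markers passed the filter at gd16.5, and one that passed through gd10.5 alone had to be higher there. T cell markers were low and went down with class II, from 5.95 to 8.80 CPM at gd10.5 to 1.59 to 3.26 CPM later without overlap, and 3 of 4 tested fell in each genotype. A T cell marker that passed the filter through gd10.5 alone also had to be higher there. B cell markers summed to at most 5.31 CPM in every library. Trophoblast markers summed to 6422 to 20475 CPM at gd10.5 and to 26668 to 54347 CPM later. In WT 4 of 6 endothelial markers fell and 5 of 6 decidual stroma markers fell, with 1 higher. From gd10.5 to gd14.5, 27.8% of all genes fell and 26.2% rose in WT, and 26.4% fell and 24.7% rose in KO. Cells of these types were not counted, and their part in the class II values was not tested.

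**Figure D4:**
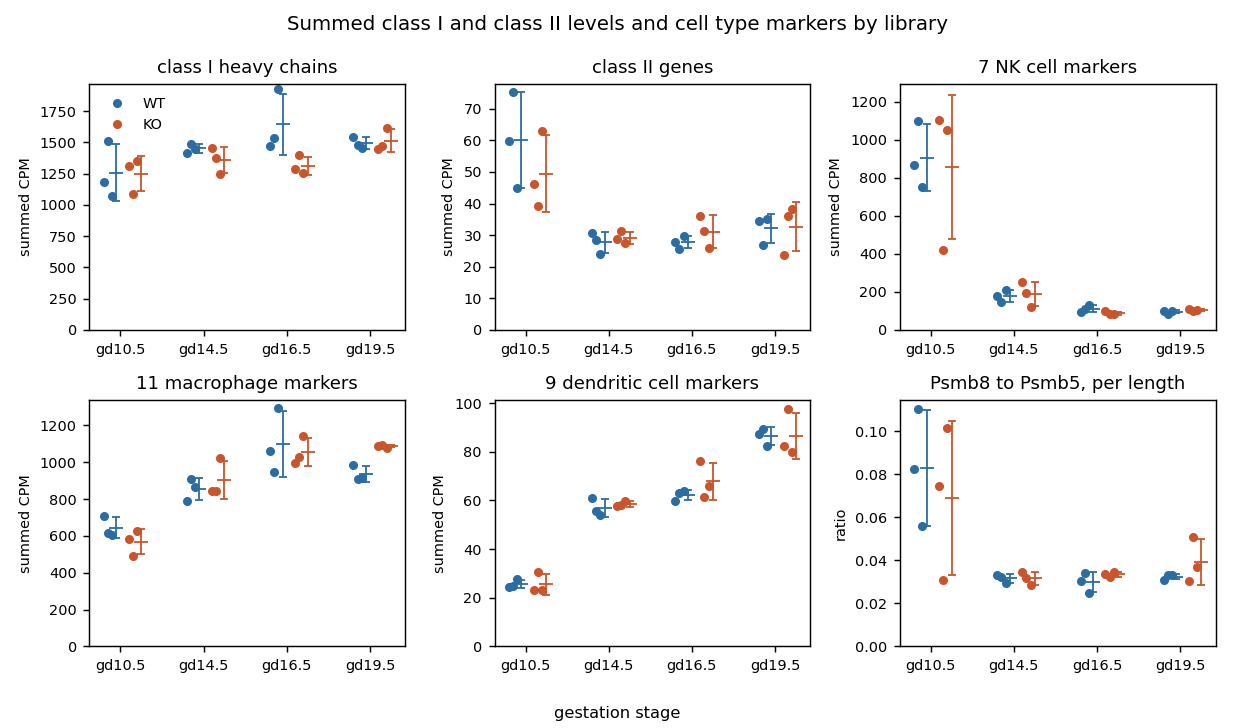
Summed CPM of the class I heavy chains, of the class II genes and of 3 lists of cell type markers, and the length-corrected ratio of Psmb8 to Psmb5, in each of the 24 libraries (points) with mean and SD of each group of 3. The class II sum and the NK cell markers are highest at gd10.5, and the macrophage and dendritic cell markers are lowest there.

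Other genes of the pathway, listed from general knowledge but with earlier results of these data known, moved in several directions from gd10.5 to gd14.5. The receptors that bind class I fell, 9 of 9 tested in both genotypes, where 27.8% of all genes fell in WT and 26.4% in KO. Their median log2 fold change was -3.18 in WT and -2.52 in KO. Among them were the NK receptor genes *Klra8* (log2 -3.22 in WT), *Klrk1* (log2 -2.68) and *Klrd1* (log2 -2.10), the last of which is also in the NK cell list, and *Lilrb4a* (log2 -1.77). The listed receptors summed to 19.6 to 44.5 CPM at gd10.5 and to 3.99 to 10.3 CPM later. A low gene that passed the filter through gd10.5 alone had to be higher there. Such genes were not set apart, so the 9 of 9 and the medians of these receptors are a description. Of 11 genes of peptide loading and the standard proteasome 3 rose and 4 fell in WT, with the chaperones *Calr* (log2 1.15) and *Pdia3* (log2 0.70) among those that rose. Of 16 tested genes of interferon signalling and MHC transcription 4 rose and 5 fell, with *Irf8* (log2 -1.02) and *Irf1* (log2 -0.86) among those that fell, and the cytokine *Ifng* itself was at most 0.081 CPM in any library. Of 6 endosomal proteases and reductases 2 rose, *Ctsb* (log2 0.62) and *Lgmn* (log2 0.55), and 2 fell, *Ifi30* (log2 -0.65) and *Sppl2a* (log2 -0.43). Of 8 tested class I-like molecules 4 rose, led by *Mill1* (log2 2.92) and *Mill2* (log2 1.49), and *Ulbp1* fell (log2 -0.56).

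KO was then compared with WT at each stage, to ask whether losing *C1qtnf6* moved these genes. Calls here needed a fold change over 2 in either direction (log2 over 1) as well as the adjusted p. No member was called at any stage by edgeR, where the calls were 0.00572% of all genes at gd10.5, 0.0166% of them at gd14.5, 0.00586% at the gd16.5 stage and 0.0230% at the last. At an unadjusted p under 0.05 stood 0 of 35 members at gd10.5 (0.801% of all genes) and, stage by stage after that, 4 of 32 (6.78%), 10 of 32 (11.1%) and 5 of 32 (13.5%). DESeq2 called 1 member, *H2-Q6* at gd16.5, and limma voom none. The interaction of genotype and stage called no member and 0% of all genes, with 1 of 35 members at an unadjusted p under 0.05 (7.23% of all genes), and DESeq2 and limma voom called none. The genotype effect over all stages called no member by any of the 3 tools and 0.0155% of all genes by edgeR, with 7 of 35 members at an unadjusted p under 0.05 (6.34% of all genes). All 7 were lower in KO: *H2-Q6*, *H2-T10*, *H2-Q5*, *H2-Q7*, *H2-T22*, *B2m* and *Nlrc5*.

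**Figure D5:**
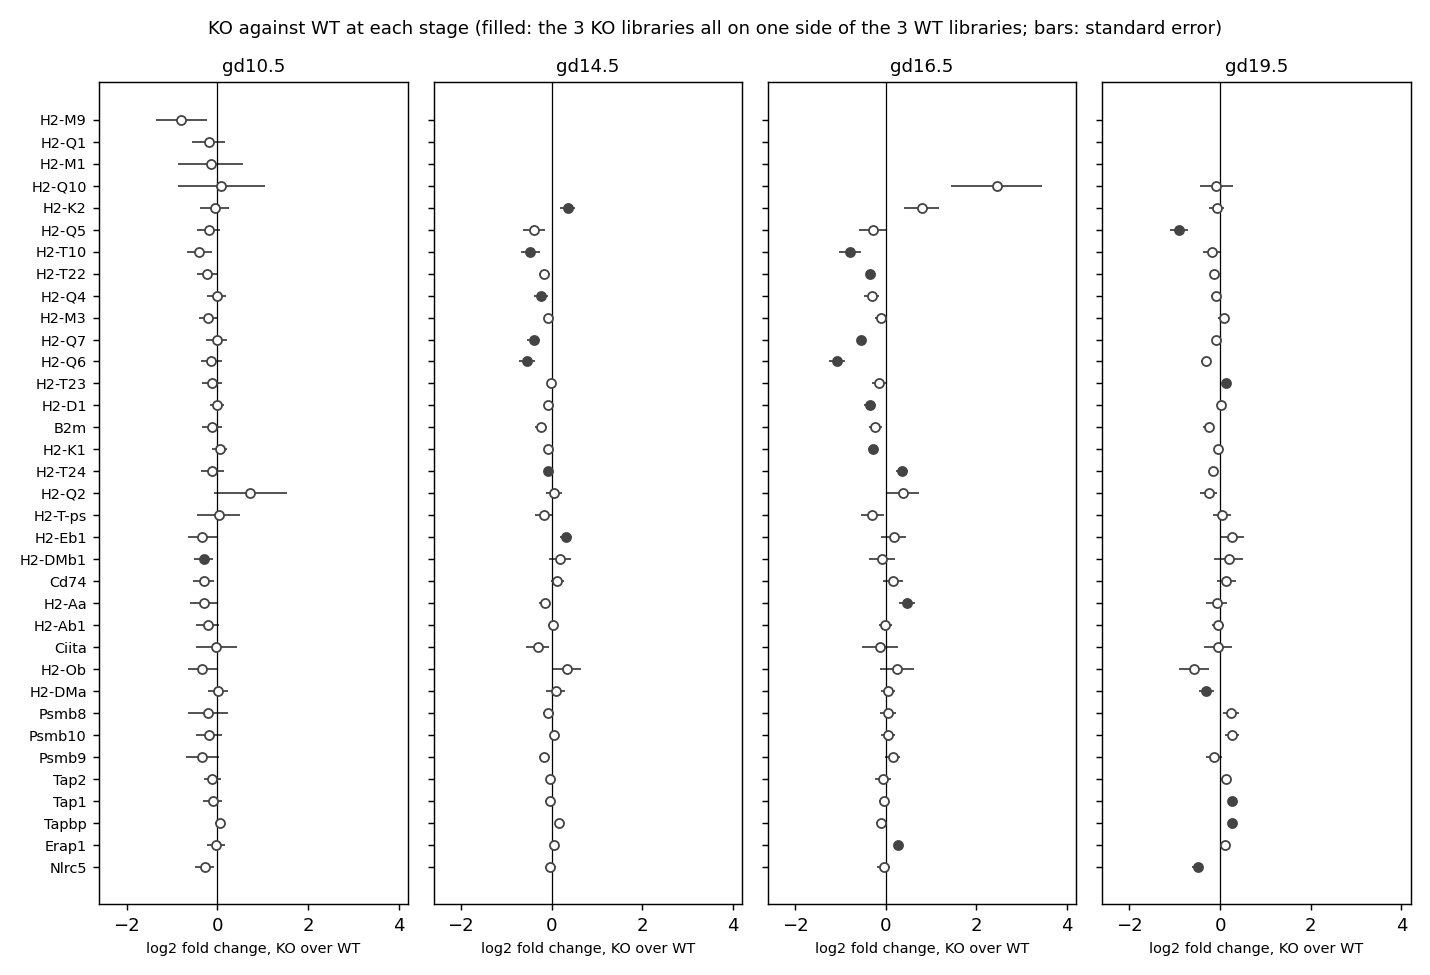
Log2 fold change of KO over WT at each stage for 35 members (those that passed the filter at that stage; H2-M10.2 is not drawn), with standard errors; filled points mark members whose 3 KO libraries all lay above or all below the 3 WT libraries. At gd16.5 the filled points of H2-Q6, H2-Q7, H2-T10, H2-T22, H2-K1 and H2-D1 lie to the left of 0 and those of Erap1, H2-Aa and H2-T24 to the right.

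At gd10.5 the members with the smallest p were *H2-T10* (log2 -0.40, SE 0.27), *H2-DMb1* (log2 -0.30, SE 0.21) and *H2-M9* (log2 -0.79, SE 0.56), each with an adjusted p of 1.00 in edgeR. *H2-DMb1* was the only member whose libraries did not overlap, where 2.35% of all genes lay wholly below and 1.83% wholly above WT. Of the members, 5 lay wholly below and 2 wholly above WT at gd14.5 (6.10% and 6.41% of all genes), 6 and 3 did so at gd16.5 (9.62% and 8.11%), and 3 and 3 at gd19.5 (8.58% and 12.8%).

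The Qa-2 genes *H2-Q6* and *H2-Q7* had the lowest p-values of all members at gd14.5 and gd16.5. They are neighbours at chr17:35424850-35430055 and chr17:35439155-35443773 of GRCm38, on the plus strand, and 6.0% of the 150-base windows of *H2-Q6* transcripts and 5.9% of those of *H2-Q7* occur in another gene, so a part of their reads cannot be placed on a single gene. At gd10.5 *H2-Q6* was at 23.1, 36.3 and 20.9 CPM in WT and at 25.4, 20.9 and 26.8 CPM in KO, which overlapped. At gd14.5 it was at 31.6, 25.2 and 27.4 CPM in WT and at 23.4, 21.6 and 12.8 CPM in KO (log2 -0.54, SE 0.18, edgeR adjusted p = 0.69). At gd16.5 it was at 23.3, 27.2 and 35.9 CPM in WT and at 14.4, 14.52 and 11.6 CPM in KO, 2.11-fold lower (log2 -1.08, SE 0.17, edgeR adjusted p = 0.23). At gd19.5 it was at 29.1, 24.7 and 22.5 CPM in WT and at 19.6, 19.6 and 23.3 CPM in KO (log2 -0.31, SE 0.11, edgeR adjusted p = 0.28). The KO libraries lay wholly below WT at gd14.5 and gd16.5 and overlapped WT at gd19.5.
*H2-Q7* followed at gd14.5 with 40.1, 36.9 and 34.7 CPM in WT and 32.7, 30.9 and 21.5 CPM in KO (log2 -0.40, SE 0.14, edgeR adjusted p = 0.69), and at gd16.5 with 32.3, 38.1 and 39.9 CPM in WT and 24.6, 25.4 and 24.6 CPM in KO (log2 -0.55, SE 0.09, edgeR adjusted p = 0.28). At gd16.5 *H2-Q7* had an adjusted p of 0.0020 in DESeq2 and of 0.019 in edgeR without the filter, with a log2 fold change under the threshold of 1 in both, and of 0.19 to 0.76 in the other 13 alternatives. Over all stages the log2 difference was -0.51 for *H2-Q6* (SE 0.13, adjusted p = 0.39) and -0.26 for *H2-Q7* (SE 0.09, adjusted p = 0.72).

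The call on *H2-Q6* at gd16.5 depended on the tool and the filter. DESeq2 gave an adjusted p of 7.2e-06, and edgeR without the filter on low counts one of 6.3e-04, and over the other 13 alternatives the adjusted p ranged from 0.12 to 0.61 with a log2 fold change of -1.20 to -0.89. At gd14.5 edgeR without the filter gave *H2-Q6* an adjusted p of 6.0e-07 and *H2-Q7* one of 4.1e-04, while DESeq2 gave 0.94 and 0.37. The interaction of *H2-Q6* with stage had an adjusted p of 0.66 in edgeR, so a difference between stages was not shown. Taken relative to classical class I, *H2-Q6* and *H2-Q7* together stood at 4.44, 5.02 and 4.58 per 100 CPM of *H2-K1* and *H2-D1* in WT at gd16.5 and at 3.57, 3.42 and 3.33 in KO. The same ratio was 6.003, 4.91 and 5.05 against 4.54, 4.48 and 3.14 at gd14.5, 4.91, 4.61 and 4.51 against 4.09, 3.96 and 4.34 at gd19.5, and overlapped at gd10.5 with 5.55, 7.05 and 5.39 against 5.38, 5.69 and 6.16. This ratio was chosen after the values had been seen and is given with no test.

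Other class I genes lay lower in the same KO gd16.5 libraries. *H2-K1* was at 606, 621 and 776 CPM in WT and at 522, 571 and 533 CPM in KO (log2 -0.29, SE 0.11, edgeR adjusted p = 0.44), and *H2-D1* at 646, 680 and 879 CPM and at 570, 597 and 554 CPM (log2 -0.34, SE 0.13, edgeR adjusted p = 0.43). The WT and KO libraries did not overlap for either gene. *H2-T22* (log2 -0.34, SE 0.10) and *H2-T10* (log2 -0.79, SE 0.25) did not overlap either, and 29.4% and 27.1% of their exon bases lie opposite other genes. Of the 16 tested class I genes 6 had an unadjusted p under 0.05 and lower values in KO and 2 higher ones, where 11.1% of all genes had such a p in either direction, and their median log2 fold change was -0.29 against 0.01 for all genes. Of the 8 tested class II genes 1, *H2-Aa*, had an unadjusted p under 0.05, with 5.91, 5.48 and 4.72 CPM in WT and 9.16, 6.56 and 6.39 CPM in KO (log2 0.46, SE 0.18, edgeR adjusted p = 0.44), and the class median was 0.11. The 10 members of any class at this p became 4 with a Y-linked covariate, and 6 without WT gd16.5 replicate 3 or KO gd16.5 replicate 1.
Several marker lists moved with these values at gd16.5. Trophoblast markers summed to 39573, 42555 and 31289 CPM in WT and to 54347, 49681 and 49400 CPM in KO, and decidual stroma markers to 4339, 3998 and 4691 CPM in WT and to 3244, 3662 and 3536 CPM in KO, and neither overlapped. Endothelial markers were at 996, 1024 and 1393 CPM in WT and at 848, 721 and 1064 CPM in KO, which overlapped. NK cell markers summed to 93.2, 111 and 133 CPM in WT and to 97.8, 85.4 and 82.3 CPM in KO, which overlapped. The listed receptors that bind class I also overlapped, at 6.74, 4.51 and 3.99 CPM in WT and 6.62, 8.91 and 6.48 CPM in KO. *Ptprc* lay wholly higher in KO, at 11.007, 13.2 and 10.03 CPM against 9.63, 7.74 and 7.74 CPM in WT. Gene by gene, 3 of 4 tested NK cell markers had lower values in KO (median log2 -0.89, 2 at an unadjusted p under 0.05). Higher values in KO, as for *H2-Aa*, were found for 9 of 11 macrophage markers (median 0.44, 2 at that p). The same held for 4 of 4 B cell markers (median 0.46, none at that p). The part of these cell types in the class I and class II values was not tested. No gene of any marker or pathway list was called at gd16.5.

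At gd19.5 the smallest p-values belonged to *H2-Q5*, *Tapbp* and *Nlrc5*. *H2-Q5* was at 2.47, 2.76 and 2.17 CPM in WT and at 1.44, 1.02 and 1.57 CPM in KO (log2 -0.91, SE 0.20, edgeR adjusted p = 0.14). *Tapbp* was at 161, 143 and 146 CPM in WT and at 191, 186 and 176 CPM in KO (log2 0.27, SE 0.07, edgeR adjusted p = 0.17), and *Tap1* at 22.9, 20.8 and 24.5 and at 26.5, 28.2 and 29.2 CPM (log2 0.27, SE 0.09, edgeR adjusted p = 0.24). *Nlrc5* lay lower in KO, at the CPM values given above (log2 -0.49, SE 0.12, edgeR adjusted p = 0.17). For all 4 genes the genotypes did not overlap, and *Tapbp*, of whose exon bases 24.9% lie opposite another gene, had an adjusted p of 0.048 in DESeq2 with a log2 fold change under the threshold of 1. Without the filter *Nlrc5*, *Tapbp* and *H2-Q5* had an adjusted p under 0.05 in edgeR, none of them past the fold threshold. The members next in p at gd14.5 were *H2-Eb1*, at 3.11, 2.63 and 2.74 CPM in WT and 3.40, 3.81 and 3.33 CPM in KO (log2 0.31, SE 0.14, edgeR adjusted p = 0.73), and *H2-K2* (log2 0.35, SE 0.16, edgeR adjusted p = 0.74).

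Outside the members, the genes whose log2 CPM followed the summed class II level most closely over the 24 libraries were *Gm33424* (Pearson r = 0.92), *Gimap8* (0.92), an immune GTPase, and *Cytip* (0.92), an adaptor of leukocyte adhesion. For the summed class I heavy chains they were *Arnt2* (0.85), *Pla1a* (0.82) and *Cpe* (0.81). These are descriptions over libraries that share stage, depth and tissue makeup.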

How the data were processed

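The deposited table held raw counts per gene, made by the authors from paired reads of stranded polyA libraries. The submitters' processing notes name Trim Galore 0.6.4, STAR 2.7.3a and featureCounts of Subread 2.0.0 with GRCm38. Strand was not used in the counting. Groups and replicate numbers came from the sample labels. Genes were filtered with filterByExpr (minimum count 10, minimum total 15), scaled by TMM and tested with the edgeR 4.0.16 quasi-likelihood test in R 4.3.3, with Benjamini-Hochberg adjustment over all genes tested. KO was compared with WT in the 6 libraries of a stage, and stages in 1 fit of 8 group means over 24 libraries. An F test of 3 interaction terms and an effect of genotype with stage as covariate used all 24. Levels are CPM on TMM-normalised library sizes, and between genes CPM per kb of exon. Intervals were not needed, since no share of a single library was tested, and 3 counts served as the limit of detection.

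The members and lists were chosen with earlier results of these data known. Named with values were the main class I, class II and processing genes, the 3 called members with the largest change between stages whose libraries did not overlap, the 3 with the smallest p between genotypes, and for likeness the 3 closest other genes. *H2-K2*, *H2-Q5*, *H2-T10*, *H2-T24* and *H2-T-ps*, where they fall outside that rule, and *Afp*, *Flt3* and the single macrophage markers were chosen after their values were seen. Alternatives were DESeq2 size factors, no filter, 10 counts in every library, a replicate block, a Y-linked covariate, other sets of libraries, fold thresholds, DESeq2 1.42.0, limma 3.58.1 voom, leaving out each library and, chosen after seeing the data, library totals. Each tool was tested on simulated data with 200 changed genes. Promoters came from RefSeq (GRCm38.p6), with 17 members without a window. Protein sequences were not used here.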

Additional observations from a re-analysis of the deposited data

Results flagged for a closer look

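*H2-T24*, a nonclassical class I gene, lay wholly above WT in KO at gd16.5, with 9.80, 9.81 and 10.3 CPM in WT and 11.7, 14.7 and 11.4 CPM in KO (log2 fold change 0.35), and wholly below it at gd14.5, with 7.61, 7.90 and 8.21 CPM in WT and 7.52, 7.60 and 7.35 CPM in KO (log2 fold change -0.0792). The opposite directions drew attention, but the interaction of genotype and stage for this gene had an adjusted p of 0.75 in edgeR, so the difference between the stages did not pass the test.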

How the results depend on the processing

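Of 1318 alternative values of the 81 fold changes of named members, 1236 kept their side of the threshold, 77 lost their call, 5 gained one and 0 changed direction. KO against WT at gd16.5 called 1 member, *H2-Q6*, with no filter and with DESeq2, against 0. From gd10.5 to gd14.5, an added fold threshold (absolute log2 over 1) left 13 calls of 20 in WT and 8 of 18 in KO, the 6 libraries alone 11 in KO, and leaving out 1 library 16 to 21 in WT and 13 to 22 in KO (13 without KO gd10.5 replicate 3 and 22 without KO gd10.5 replicate 2). From gd14.5 to gd16.5, the 2 WT calls became 1 with library totals, 1 with no filter, 7 with limma voom, 6 with the 6 libraries alone, 0 with the fold threshold and 1 to 2 with a library left out (1 without WT gd14.5 replicate 1 or 3). The 5 KO calls became 10 with library totals, 3 with 10 counts in every library, 3 with the Y-linked covariate, 2 with the fold threshold and 3 to 5 with a library left out (3 without KO gd14.5 replicate 1 or 2, or KO gd16.5 replicate 2). From gd16.5 to gd19.5, WT had 1 call with the 6 libraries alone against 0, and the 1 KO call became 5 with library totals, 2 with DESeq2, 4 with limma voom, 2 with the 6 libraries alone and 0 with the fold threshold. The cause was not tested, except that an added fold threshold removes calls by construction.

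With the replicate number as a block, the calls were 19, 2 and 0 in the WT steps and 17, 5 and 1 in the KO steps, and 0 between genotypes. The correlations of same-numbered WT and KO libraries were 0.031, -0.027 and -0.455 at gd10.5. The gd14.5 pairs had 0.111, 0.027 and 0.167, the gd16.5 pairs 0.124, -0.308 and 0.406, and the gd19.5 pairs 0.095, 0.038 and 0.114. At no stage was every pair over 0.1. The labels name no dam, litter or batch, and these correlations cannot show whether same-numbered samples shared one. After gd10.5 counts of at most 17 per library limit *H2-Q1*, *H2-M1* and *H2-M9*.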
